A study of Mus musculus with 2 samples.

Results

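The guanylate-binding proteins (Gbp) were followed through 7 members, Gbp2, Gbp2b, Gbp3, Gbp4, Gbp5, Gbp6 and Gbp7, in single immune cells from the lymph nodes of mice with a transplanted heart. The members were the entries that carry these symbols in the gene list of the deposited count tables, 8 of 27998 entries and 7 of 27933 symbols. In the allogeneic group a C57BL/6 heart was placed in a Balb/c recipient, and in the syngeneic group donor and recipient were both Balb/c. Mice were 6 to 8 weeks old in both groups. Each group had 1 droplet library, made with a 3′ kit that reads the end of each transcript and tags each captured molecule with a unique molecular identifier (UMI). With 1 library per group no difference below could be set against replicates, and no test was made. The sources used here do not give how many mice a library pooled or how long after grafting it was made.

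Guanylate-binding proteins are large GTPases whose genes are induced by interferon-gamma and, for several members, by type I interferon. They assemble on the membranes of vacuoles that hold intracellular bacteria or parasites and on bacteria in the cytosol, and they help to open these compartments and to set off inflammasomes. In mouse the genes lie in a cluster on chromosome 3 and another on chromosome 5. T cells and natural killer cells are the main sources of interferon-gamma when a graft is recognised as foreign, and lymph nodes that drain a graft are a site of that recognition.

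The allogeneic library held 3500 barcodes and 8415043 UMIs, and the syngeneic library held 7967 barcodes and 46486632 UMIs. After a filter on cell quality (200 genes or more, with mitochondrial UMIs of 10% or less) 2106 allogeneic and 7957 syngeneic cells remained, with median depths of 3147 and 4917 UMIs. The shallowest barcode of the syngeneic library had 3447 UMIs, against 150 in the allogeneic library, so shallow cells occur only on the allogeneic side. Haemoglobin made up 9.11% of the UMIs of the kept allogeneic cells and 0.114% of those of the syngeneic cells. The libraries shared 66 barcodes. Levels are given as CPM, the UMIs of a gene in a cell type of 1 library scaled to 1000000 UMIs in all, and are not divided by transcript length. All intervals are exact 95% intervals for counting error only, and UMIs come from amplified reads.

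Cell types were set by gates on marker UMIs, with 0 UMIs of the markers of the other lineages. The gates held 218 allogeneic and 656 syngeneic CD4 T cells, 373 and 1368 CD8 T cells, 65 and 80 Foxp3+ T cells, and 227 and 441 B cells. In all they took 43.2% of the kept allogeneic cells and 32.0% of the kept syngeneic cells. Marker genes that the gates did not use were compared next. Nkg7, a cytotoxic granule gene, had 851 CPM in allogeneic and 850.4 CPM in syngeneic CD8 T cells, against 42.5 and 43.8 CPM in CD4 T cells. The regulatory T cell genes Il2ra, Ctla4, Ikzf2 and Tnfrsf18 summed to 1483 CPM in allogeneic and 1102 CPM in syngeneic Foxp3+ T cells, and to between 111 and 268 CPM in the other T gates. The B cell genes Cd22, Cd74, Ebf1 and Cd37 summed to 24307 CPM in allogeneic and 25159 CPM in syngeneic B cells. Most of this was Cd74, with 22060 and 22890 CPM. Cd22 (214 and 396 CPM) and Cd37 (481 and 754 CPM) were lower in the allogeneic gate, and Ebf1 was higher (1552 and 1119 CPM). Some markers of other cells were higher in the B cell gate of the syngeneic library. Siglech, of plasmacytoid dendritic cells, had 0 CPM in allogeneic and 97.8 CPM (215 UMIs) in syngeneic B cells. Fscn1, of mature dendritic cells, had 1.80 and 65.5 CPM, Jchain, of plasma cells, 41.3 and 156 CPM, and Lck, of T cells, 37.7 and 145 CPM. Others were higher in the allogeneic B cell gate. Flt3, of dendritic cells, had 35.9 CPM in allogeneic and 17.3 CPM in syngeneic B cells. The neutrophil genes S100a8, S100a9, Retnlg and Mmp9 summed to 1146 and 129 CPM, and haemoglobin made up 3.07% and 0.00491% of the UMIs. The macrophage gate (C1qa, C1qb, C1qc) held 27 allogeneic cells and 0 of 7957 syngeneic cells, which allows a share of up to 0.0463%, so no ratio was made there.

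Promoters of 5 members could be matched in RefSeq (GRCm38.p6), and 4 of them are shown because they differ in which interferon motifs they hold. Each window runs from 250 bases before to 50 bases after the start site, 5′ to 3′ on the + strand. Capitals mark matches to the interferon-stimulated response element (ISRE, searched on both strands as GAAA, any 2 bases and GAAA), which binds the factors of type I interferon signalling, and to the interferon-gamma activated site (GAS, searched as TTCNNNGAA), which takes part in the response to interferon-gamma. The windows are chr3:142530086-142530385 (Gbp7), chr3:142496684-142496983 (Gbp5), chr3:142620413-142620712 (Gbp2) and chr3:142594597-142594896 (Gbp2b).
Gbp7: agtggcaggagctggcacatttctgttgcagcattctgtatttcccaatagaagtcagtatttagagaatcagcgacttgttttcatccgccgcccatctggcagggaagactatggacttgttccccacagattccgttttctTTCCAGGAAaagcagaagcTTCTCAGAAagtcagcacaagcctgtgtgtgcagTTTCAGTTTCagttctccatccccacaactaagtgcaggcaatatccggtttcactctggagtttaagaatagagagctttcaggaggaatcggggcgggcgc
Gbp5: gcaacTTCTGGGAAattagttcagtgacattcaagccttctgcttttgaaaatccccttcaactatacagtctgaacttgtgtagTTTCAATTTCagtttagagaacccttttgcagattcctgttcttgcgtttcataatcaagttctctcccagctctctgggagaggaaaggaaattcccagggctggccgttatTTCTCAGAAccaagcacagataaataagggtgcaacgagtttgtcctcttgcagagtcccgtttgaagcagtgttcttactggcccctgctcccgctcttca
Gbp2: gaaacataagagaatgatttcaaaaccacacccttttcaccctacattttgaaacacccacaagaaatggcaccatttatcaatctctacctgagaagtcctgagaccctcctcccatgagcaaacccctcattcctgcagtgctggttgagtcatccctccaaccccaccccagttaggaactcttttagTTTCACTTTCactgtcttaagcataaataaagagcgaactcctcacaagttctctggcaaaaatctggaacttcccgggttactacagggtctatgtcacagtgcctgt
Gbp2b: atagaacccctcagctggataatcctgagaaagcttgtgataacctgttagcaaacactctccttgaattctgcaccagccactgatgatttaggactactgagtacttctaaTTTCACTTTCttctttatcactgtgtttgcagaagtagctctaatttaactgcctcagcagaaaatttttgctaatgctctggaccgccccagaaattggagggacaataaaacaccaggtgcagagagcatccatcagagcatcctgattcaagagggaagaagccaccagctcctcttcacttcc

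All 5 matched members held an ISRE match in 1 window, and the 2 GAS matches each of Gbp7 and Gbp5 were the only ones among them. In Gbp7 the ISRE match TTTCAGTTTC began at position -53 from the start site, with GAS matches at -106 and -87. In Gbp5 the ISRE match began at -165 and the GAS matches at -245 and -52. Gbp2 and Gbp2b held the same ISRE letters, TTTCACTTTC, at -59 and at -137. Gbp3, which has a pair of start sites in the table, held 2 overlapping ISRE matches in its first window and 0 in its second. Among 32851 mouse promoter windows of this length, 3.44% held the ISRE letters, 8.30% the GAS letters and 0.454% both. A match of letters is a description and shows no binding.

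As UMIs summed over a gate, the family was higher in the allogeneic library in each of the 4 cell types compared. The amounts differed between them, and such sums give deeper cells more weight. In CD8 T cells the 7 members summed to 865 CPM in the allogeneic library (819 to 912) and 416 CPM in the syngeneic library (401 to 431), a 2.08-fold difference (1.95 to 2.22). Foxp3+ T cells had 936 CPM in the allogeneic library and 539 CPM in the syngeneic library, 1.74-fold higher (1.44 to 2.10). B cells had 318 CPM in the allogeneic library and 117 CPM in the syngeneic library, 2.72-fold higher (2.23 to 3.31). CD4 T cells differed least, with 541 CPM in the allogeneic library and 448 CPM in the syngeneic library, 1.21-fold (1.08 to 1.35). The allogeneic to syngeneic ratio of CD8 T cells exceeded that of CD4 T cells by 0.78 on the log2 scale (difference of CD4 T minus CD8 T -0.78, -0.97 to -0.60). The ratios of CD8 T and Foxp3+ T cells were not separable (difference 0.26, -0.03 to 0.55).

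The order of the cell types differed between the libraries. In the allogeneic library Foxp3+ T and CD8 T cells stood highest and were not separable (1.08-fold, 0.929 to 1.26), CD8 T cells were 1.60-fold above CD4 T cells (1.43 to 1.79), and CD4 T cells were 1.70-fold above B cells (1.42 to 2.04). In the syngeneic library Foxp3+ T cells were highest, 1.20-fold above CD4 T cells (1.05 to 1.38), and CD8 T cells lay slightly under CD4 T cells (0.929-fold, 0.872 to 0.989). B cells were lowest in both libraries, and CD4 T cells stood 3.83-fold above them in the syngeneic library (3.35 to 4.39). The 27 allogeneic macrophages, with a median of 499 UMIs, had 11 Gbp UMIs, of which 6 were Gbp2b, 2 Gbp2, 2 Gbp7 and 1 Gbp3. That is 652 CPM with an interval of 326 to 1167, which spans the T cell levels. In those cells 4 of 6 further macrophage markers had UMIs, led by Vcam1 with 30, and Adgre1 and Mrc1 had 0.

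**Figure D1:**
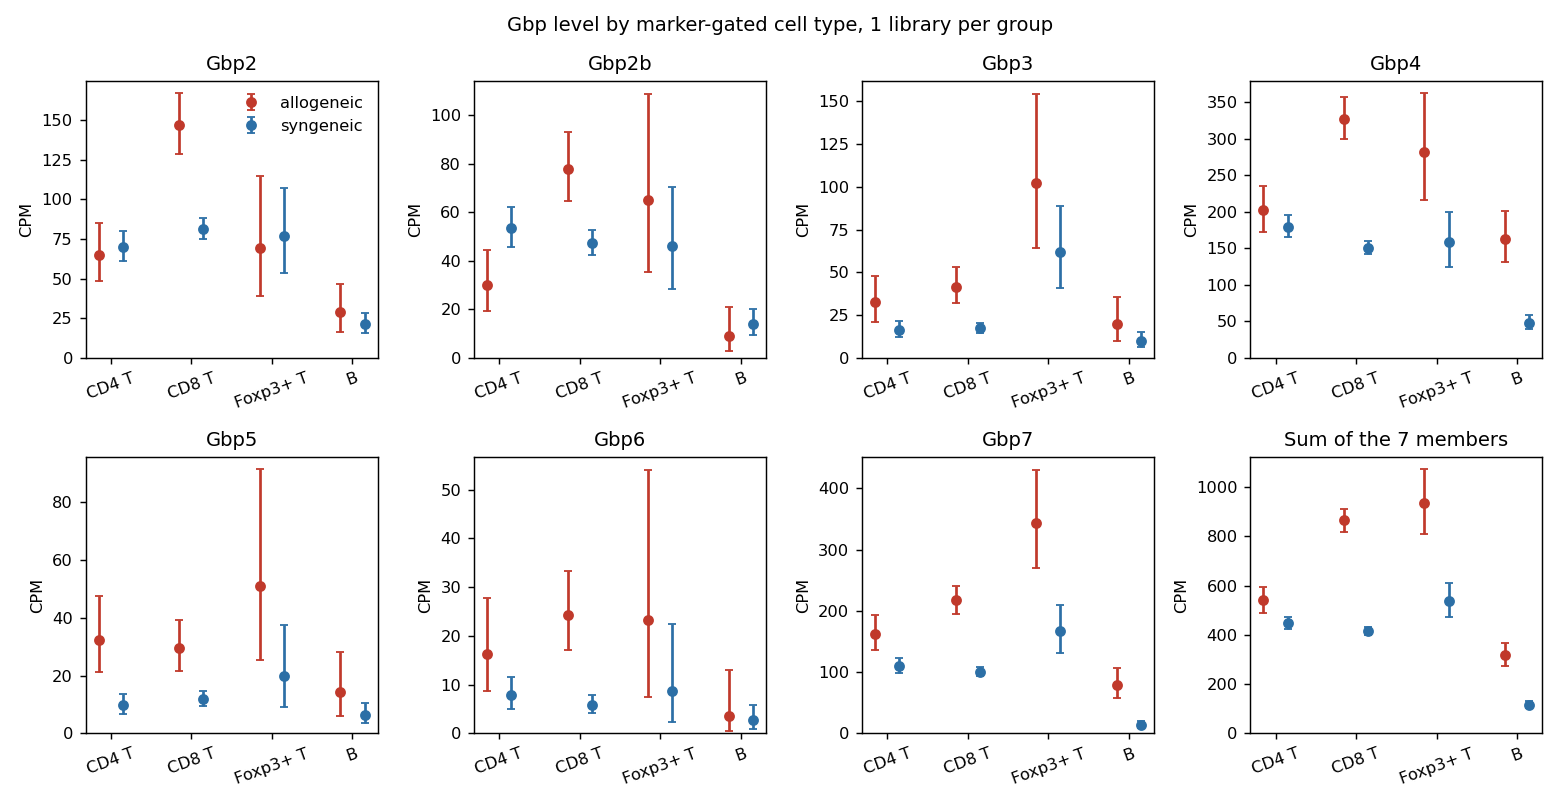
Level of each Gbp member and of their sum (CPM, vertical axis, from 0, with its own scale in each panel) in 4 marker-gated cell types, allogeneic library in red and syngeneic library in blue. Points are sums over the cells of 1 library and bars are exact 95% Poisson intervals. The sum stands at 865 CPM in allogeneic and 416 CPM in syngeneic CD8 T cells, and lies closer together in CD4 T cells.

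Without cells that had 2 or more UMIs of Siglech, Flt3, Xcr1, Ccl22, Fscn1, Jchain and Sdc1, which took out 8 allogeneic and 49 syngeneic B cells, the B cell levels were 331 CPM in the allogeneic library and 123 CPM in the syngeneic library (log2 ratio 1.43, 1.13 to 1.73). Depth set a further limit on the B cell value. Only 19 of the 227 allogeneic B cells (8.37%) reached the 3447 UMIs of the shallowest syngeneic barcode. These 19 cells had 11 Gbp UMIs, or 101 CPM (50.3 to 180.3), against 117 CPM in syngeneic B cells, a ratio of 0.862 (0.425 to 1.57). The 208 shallower allogeneic B cells had 371 CPM. The B cell difference was therefore seen with allogeneic cells of a depth that the syngeneic library does not hold, and not in these 19. CD8 T cells did not share this split. The 250 allogeneic CD8 T cells at or over 3447 UMIs had 877 CPM and the 123 shallower ones 819 CPM, and the deeper cells were 2.11-fold above the syngeneic library (1.97 to 2.26). In Foxp3+ T cells the deeper allogeneic cells had 824 CPM (1.53-fold, 1.19 to 1.95), and in CD4 T cells 474 CPM, which was not separable from the syngeneic level (1.06-fold, 0.911 to 1.23). When every cell was thinned to 1000 UMIs before it was gated, the ratio turned in the 28 allogeneic and 39 syngeneic Foxp3+ T cells that remained (log2 -0.15, -1.04 to 0.70), and CD8 T cells kept a log2 ratio of 0.73 (0.47 to 0.99). B cells so treated, 260 allogeneic and 975 syngeneic, kept a 2.36-fold difference (1.79 to 3.09). Thinning does not leave out the cells that were shallow before it.

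Neutrophil RNA was present in every allogeneic gate. The neutrophil markers S100a8, S100a9, Retnlg and Mmp9 summed to 3297 CPM in allogeneic and 4.95 CPM in syngeneic CD8 T cells, and to 12360 and 118 CPM in CD4 T cells. In the allogeneic library 1 CD4 T barcode and 2 CD8 T barcodes had over 1% of their UMIs from these genes, and without such barcodes the sums were 1022 CPM in CD4 T cells, 1019 CPM in CD8 T cells, 1089 CPM in Foxp3+ T cells and 1138 CPM in B cells. The family ratio without them was 1.07 on the log2 scale in CD8 T cells, 0.34 in CD4 T cells and 1.45 in B cells, and the part of the remaining neutrophil RNA in these ratios was not tested. Barcodes with at least 30% haemoglobin, which are mostly red cell precursors or free red cell RNA, had 30.6 CPM of Gbp in the allogeneic library. That scale counts their haemoglobin UMIs too, which lowers the CPM of any other gene. The 1071 allogeneic barcodes under 200 genes had 202 CPM. Scaled by haemoglobin, that free RNA would supply 1.60 CPM of the 865 in CD8 T cells, 1.27 CPM of the 936 in Foxp3+ T cells, 4.37 CPM of the 541 in CD4 T cells and 9.61 CPM of the 318 in B cells. Such scaling takes haemoglobin to track all free RNA, which was not tested. It gave 0.630% free RNA in Foxp3+ T cells and 4.76% in B cells, whereas their neutrophil sums, at 1089 and 1138 CPM, were close.

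At least 2-fold higher in the allogeneic library were 5 of 7 members in CD8 T cells, where 7.92% of the genes with at least 20 UMIs passed the same fold. In B cells 3 members passed, against 9.17% of genes. Foxp3+ T cells had 3, with Gbp6 among them on 9 UMIs, so that 2 of the 6 members with at least 20 UMIs passed, against 11.0% of genes. CD4 T cells had 2, against 8.98% of genes. No member was at least 2-fold lower in any of the 4 cell types, where the share of genes that far down was 5.33% (CD8 T), 11.0% (B), 6.89% (Foxp3+ T) and 5.81% (CD4 T). Over all kept cells 1 member was that far up (Gbp6), against 10.5% of genes, and 0 were that far down, against 7.70% of genes. The median log2 ratio of the members with at least 20 UMIs was 1.12 in CD8 T cells, 1.08 in B cells, 0.78 in Foxp3+ T cells and 0.56 in CD4 T cells, and that of all genes lay between -0.04 and 0.08. The members were chosen with earlier results of these data known.

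**Figure D2:**
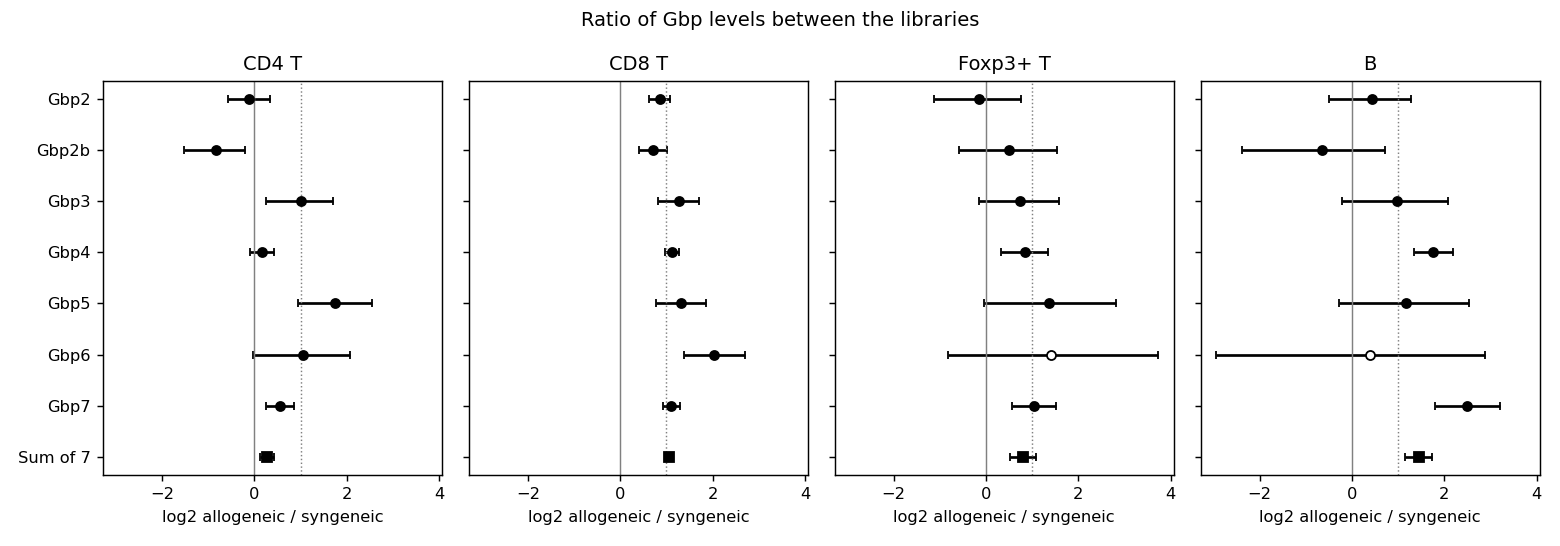
Log2 ratio of allogeneic over syngeneic CPM (horizontal axis) for each member and for their sum (squares), 1 panel per cell type, with exact 95% counting intervals. The solid line marks no difference, the dotted line 2-fold, and open circles mark members with fewer than 20 UMIs. Gbp2b lies left of the solid line in CD4 T cells (-0.84) and right of it in CD8 T cells (0.72).

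Gbp7, a chromosome 3 member (142530342 to 142550149, + strand), was higher in the allogeneic library in all 4 cell types. It had 217 CPM in allogeneic and 101 CPM in syngeneic CD8 T cells (2.15-fold, 1.89 to 2.45) and 343 and 167 CPM in Foxp3+ T cells (2.05-fold, 1.47 to 2.87). B cells had 79.0 CPM (44 UMIs) in the allogeneic library and 14.1 CPM (31 UMIs) in the syngeneic library, 5.61-fold (3.46 to 9.18), and CD4 T cells had 162 and 110.4 CPM (1.47-fold, 1.19 to 1.80). The intervals of the libraries did not overlap in any of these. Gbp7 made up 24.9% of the family's UMIs in allogeneic and 12.1% in syngeneic B cells. Thinned before gating, the Foxp3+ T ratio of Gbp7 turned (log2 -0.17, -1.78 to 1.32), the CD8 T ratio had an interval that included no difference (log2 0.50, -0.08 to 1.05), and the 19 deeper allogeneic B cells had 0 Gbp7 UMIs.

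Gbp4 lies on chromosome 5 (105115767 to 105139586, - strand), in a region where its annotated span overlaps those of Gbp8 and Gbp9. It had 328 CPM in allogeneic and 151 CPM in syngeneic CD8 T cells (2.17-fold, 1.95 to 2.41), and 163 CPM in allogeneic and 48.2 CPM in syngeneic B cells (3.39-fold, 2.53 to 4.53). Foxp3+ T cells had 283 and 158 CPM (1.79-fold, 1.25 to 2.55). In CD4 T cells the difference was within counting error, with 202 CPM in the allogeneic library and 180 CPM in the syngeneic library (1.12-fold, 0.939 to 1.34). In the deeper B cells alone the log2 ratio was 0.19 (-1.29 to 1.36). Gbp4 and Gbp7 together gave 64.9% of the family's UMIs in the kept allogeneic cells and 60.2% in the syngeneic cells, as shares of UMIs at transcript ends with no correction for how well each end is captured.

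Gbp2, a prenylated member that coats pathogen vacuoles, and Gbp2b, its neighbour formerly named Gbp1, had ratios that differed between CD8 and CD4 T cells. Gbp2 had 147 CPM in allogeneic and 81.2 CPM in syngeneic CD8 T cells (1.81-fold, 1.55 to 2.11). Among CD4 T cells it had 64.9 and 70.1 CPM (0.927-fold, 0.672 to 1.26) and in Foxp3+ T cells 69.5 and 77.0 CPM (0.904-fold, 0.458 to 1.70). Its B cell level of 28.7 CPM in the allogeneic and 21.4 CPM in the syngeneic library was within counting error too. The CD8 T ratio of Gbp2 exceeded the CD4 T ratio by 0.97 on the log2 scale (0.47 to 1.48).

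Gbp2b was lower in the CD4 T cells of the allogeneic library and higher in its CD8 T cells. CD4 T cells had 29.97 CPM (24 UMIs) in the allogeneic library and 53.5 CPM (171 UMIs) in the syngeneic library, a ratio of 0.560 (0.349 to 0.862). CD8 T cells had 77.9 and 47.4 CPM (1.64-fold, 1.33 to 2.03). The ratios differed by 1.55 on the log2 scale (0.85 to 2.3), with counting error alone considered. Among cells of at least 3447 UMIs the CD4 T value was -0.75 on the log2 scale with an interval that reached zero (-1.65 to 0.03), and the CD8 T value was 0.72 (0.38 to 1.05). The CD8 T value turned when cells were thinned to 1000 UMIs before gating (-0.33, -1.60 to 0.72). Foxp3+ T cells had 64.9 and 46.2 CPM and B cells 8.98 and 14.1 CPM, within counting error.

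Gbp5 is a prenylated member that promotes inflammasome assembly in macrophages. It was low throughout and had the highest ratio of the family in CD4 T cells, with 32.5 CPM (26 UMIs) in the allogeneic library and 9.70 CPM (31 UMIs) in the syngeneic library (3.35-fold, 1.91 to 5.83). CD8 T cells had 29.4 and 11.8 CPM (2.49-fold, 1.70 to 3.60). The 51.0 and 19.8 CPM of Foxp3+ T cells (2.58-fold, 0.971 to 7.04) and the 14.4 and 6.37 CPM of B cells (2.26-fold, 0.820 to 5.77) had intervals that included no difference. Among the deeper cells the CD4 T log2 ratio of Gbp5 was 1.90 (0.93 to 2.82), and thinned before gating it was 0.87 (-2.52 to 3.49), below the 1.15 of Gbp7.

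Gbp3 (chromosome 3, 142560026 to 142573209, + strand) was highest in Foxp3+ T cells in both libraries. Foxp3+ T cells had 102 CPM in the allogeneic library and 61.6 CPM in the syngeneic library (1.66-fold, 0.903 to 3.0). CD4 T cells had 32.5 and 16.3 CPM (1.996-fold, 1.20 to 3.25), CD8 T cells 41.5 and 17.3 CPM (2.40-fold, 1.75 to 3.26) and B cells 19.8 and 10.005 CPM. Within the allogeneic library Foxp3+ T cells were 3.14-fold above CD4 T cells (1.70 to 5.77), and within the syngeneic library 3.78-fold (2.301 to 6.10).

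Gbp6 (chromosome 5, 105270702 to 105293698, - strand) was the least counted member. It had 24.3 CPM (38 UMIs) in allogeneic and 5.91 CPM (43 UMIs) in syngeneic CD8 T cells (4.11-fold, 2.58 to 6.51), and 16.2 and 7.82 CPM in CD4 T cells (2.08-fold, 0.975 to 4.21). Thinned before gating, its CD8 T log2 ratio was 1.27 (-0.81 to 2.996). Foxp3+ T cells and B cells had 9 and 8 UMIs over both libraries. The symbol stands for ENSMUSG00000104713, with 102 allogeneic and 205 syngeneic UMIs in kept cells, and for ENSMUSG00000079362, with 2 and 4 UMIs, which were summed. The end of the Gbp6 transcript is 90.8% identical to that of Gbp9 over 400 bases and 88.1% identical to that of Gbp8, and the sources used here do not say how reads that match several genes were counted. The values of Gbp6 and Gbp4 are uncertain to that extent. Of these near copies outside the 7, Gbp9 had 160 CPM in allogeneic and 76.6 CPM in syngeneic CD8 T cells and 180 and 42.3 CPM in B cells, while Gbp8 had 32.6 and 26.9 CPM in CD8 T cells. Gbp10 had 19.8 CPM in allogeneic and 7.14 CPM in syngeneic CD8 T cells.

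The share of cells with a UMI of any member was compared after thinning every gated cell to 1000 UMIs. In CD8 T cells it was 48.8% (43.5 to 54.0) in the allogeneic library and 31.1% (28.7 to 33.7) in the syngeneic library. B cells had 27.5% (21.6 to 34.0) and 11.6% (8.73 to 14.9). Neither pair of intervals overlapped, whereas those of CD4 T cells, 40.8% (34.2 to 47.8) and 33.4% (29.8 to 37.1), and of Foxp3+ T cells, 55.4% and 46.3%, did. Without thinning the shares were 84.5% and 79.8% in CD8 T cells, 46.7% and 39.2% in B cells, 71.6% and 75.8% in CD4 T cells, and 86.2% and 87.5% in Foxp3+ T cells. The median depths were 4000 and 5022 UMIs in CD8 T cells and 2235 and 4172 UMIs in B cells. Thinning left out 10 CD8 T, 16 B and 5 CD4 T cells of the allogeneic library and none of the other gated cells of these 4 types. Of 73 allogeneic barcodes with at least 30% haemoglobin, with a median depth of 9606 UMIs, 1.37% had a Gbp UMI after thinning and 20.5% before. They were chosen by haemoglobin, which leaves fewer of the 1000 UMIs for any other gene, so the low share follows in part from that choice.

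**Figure D3:**
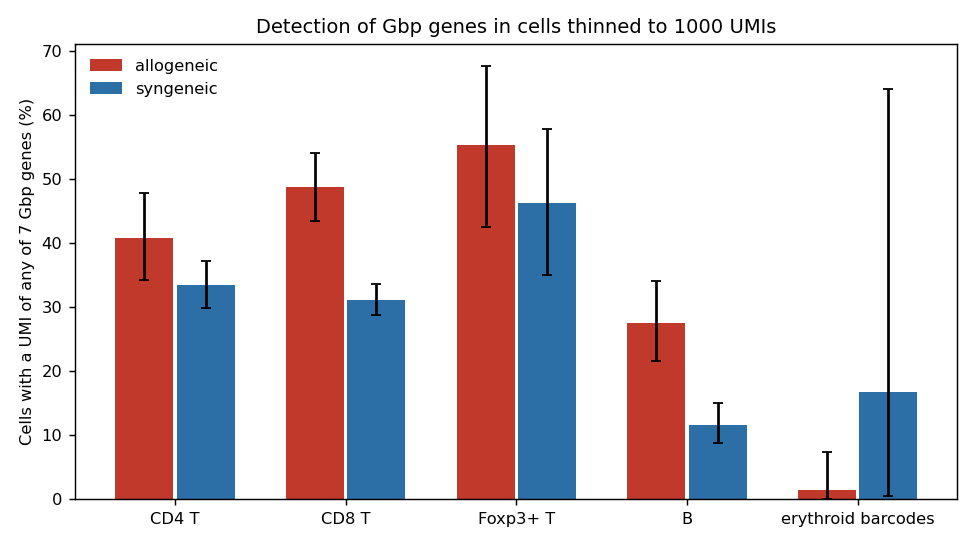
Share of cells with at least 1 UMI of any of the 7 members (percent, vertical axis) after thinning to 1000 UMIs, by cell type, allogeneic library in red and syngeneic library in blue, with exact 95% binomial intervals. The CD8 T bars stand at 48.8% and 31.1%, and barcodes with at least 30% haemoglobin at 1.37% in the allogeneic library. The syngeneic library held 6 such barcodes. Their haemoglobin leaves fewer of the 1000 UMIs for other genes.

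In CD8 T and B cells, members were found together in 1 cell more often in the allogeneic library. There the intervals of the libraries did not overlap. A higher share of cells with any member raises this share too. The share that independent detection of the members would give was not computed. After thinning, 2 or more members were detected in 18.2% of allogeneic and 5.56% of syngeneic CD8 T cells, and in 5.69% and 0.454% of B cells. For CD4 T cells the shares were 12.2% and 7.16%, and for Foxp3+ T cells 23.1% and 16.3%, with intervals that overlapped. Among allogeneic CD8 T cells with a Gbp4 UMI, 53.4% (42.5 to 64.1) had a UMI of another member, against 32.4% (26.9 to 38.2) of those without Gbp4. In the syngeneic library the shares were 29.5% and 21.0%. Gbp2b was alike, with another member in 75.0% of 28 allogeneic CD8 T cells that had it and 44.5% of those that lacked it, against 45.2% and 27.9% in the syngeneic library.

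Cells were then divided by the UMIs of 10 type I interferon targets (Isg15, Ifit1, Ifit3, Irf7, Oasl2, Usp18, Rsad2, Mx1, Rtp4, Ifi44) after thinning. Many more allogeneic cells had at least 2 such UMIs, 48.8% against 8.04% of syngeneic CD8 T cells, 45.5% against 7.62% of CD4 T cells, 50.7% against 4.31% of B cells and 29.2% against 15% of Foxp3+ T cells. Within each library, CD8 T and CD4 T cells with at least 2 target UMIs had more Gbp than cells with 0. Foxp3+ T cells showed this in the allogeneic library (1684 and 630 CPM, 2.67-fold, 1.44 to 5.14) but not beyond counting error in the syngeneic library (1.28-fold, 0.560 to 2.66). B cells had a ratio of 1.79 (1.04 to 3.25) in the allogeneic library and 0.920 (0.108 to 3.54) in the syngeneic library. Allogeneic CD8 T cells had 1243 CPM with at least 2 target UMIs and 554 CPM with 0 (2.24-fold, 1.65 to 3.10), and those of the syngeneic library had 945 and 346 CPM (2.74-fold, 2.18 to 3.41). The same split gave 866 and 433 CPM in allogeneic CD4 T cells (2.0-fold, 1.30 to 3.17) and 820 and 431 CPM in syngeneic CD4 T cells (1.90-fold, 1.33 to 2.67). Among genes with at least 20 UMIs in CD8 T cells, 6.76% in the allogeneic and 5.35% in the syngeneic library were at least 2-fold higher in that split, and in CD4 T cells 6.07% and 6.88%.

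Between the libraries, CD4 T cells in the same target UMI group had Gbp levels that were not separable. The allogeneic to syngeneic ratio was 1.004 (0.656 to 1.48) in CD4 T cells with 0 target UMIs, 1.08 (0.666 to 1.71) with 1 and 1.06 (0.719 to 1.57) with at least 2. Each interval also holds the 1.21-fold difference of all CD4 T cells, which was taken before thinning and gives deeper cells more weight. No ratio was made over all thinned cells of this gate, so the split cannot show whether a difference went away. The group with at least 2 has no upper limit, so target levels within it need not be alike. CD8 T cells kept a difference at 0 target UMIs (1.60-fold, 1.17 to 2.16) and at 2 or more (1.31-fold, 1.04 to 1.68), and were not separable at 1 (0.988-fold, 0.692 to 1.39). B cells with 0 target UMIs had 281 CPM in the allogeneic library and 114 CPM in the syngeneic library (2.46-fold, 1.33 to 4.36). With 1 they had 200 and 255 CPM (0.786-fold, 0.286 to 2.01). With 2 or more they had 505 and 105 CPM, the second from 2 UMIs, and the ratio of 4.79 had an interval of 1.26 to 40.6. The intervals of Foxp3+ T cells included no difference at 0, at 1 and at 2 or more target UMIs.

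**Figure D4:**
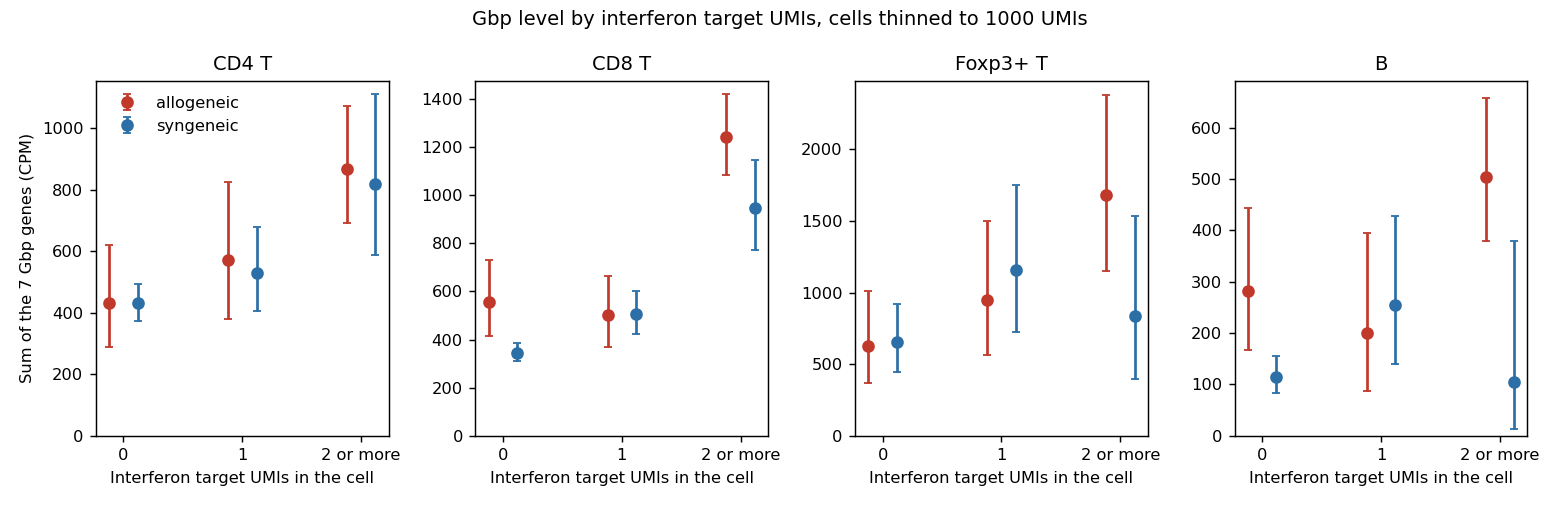
Summed level of the 7 members (CPM, vertical axis, from 0, with its own scale in each panel) in cells with 0, 1 or at least 2 UMIs of 10 type I interferon targets, all thinned to 1000 UMIs, allogeneic library in red and syngeneic library in blue. Points are sums over cells of 1 library with exact 95% Poisson intervals. CD4 T cells stand at 433 (allogeneic) and 431 CPM (syngeneic) with 0 target UMIs, and at 866 and 820 CPM with 2 or more.

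The type I interferon targets themselves were at least 2-fold higher in the allogeneic library with 1 exception in Foxp3+ T cells. Of those with at least 20 UMIs, 9 of 9 passed in CD8 T cells and 8 of 8 in both CD4 T and B cells. In Foxp3+ T cells 6 of 7 passed. The shares of all such genes were 7.92% (CD8 T), 8.98% (CD4 T), 9.17% (B) and 11.0% (Foxp3+ T). Ifit3, which binds viral RNA complexes with its relatives, had 399 CPM in allogeneic and 41.6 CPM in syngeneic CD8 T cells, and 438 and 14.6 CPM in B cells. Irf7, the transcription factor that amplifies type I interferon, had 287 and 69.4 CPM in CD8 T cells and 298 and 74.8 CPM in CD4 T cells.

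Immunity-related GTPases, the other interferon-inducible GTPases that act on pathogen vacuoles, had a median log2 ratio of 1.15 in CD8 T cells, 1.89 in B cells, 0.97 in Foxp3+ T cells and 0.44 in CD4 T cells, beside 1.12, 1.08, 0.78 and 0.56 for the Gbp members. At least 2-fold higher were 4 of 7 in CD8 T cells, 2 of 7 in CD4 T cells, 3 of 6 in Foxp3+ T cells and 4 of 5 in B cells, among genes with at least 20 UMIs, where the shares of all such genes were 7.92%, 8.98%, 11.0% and 9.17%. Irgm1, a regulator of the other members, had 132 CPM in allogeneic and 59.5 CPM in syngeneic CD8 T cells and 112 and 82.6 CPM in CD4 T cells. Iigp1, an effector that coats parasite vacuoles, had 131 CPM in allogeneic and 43.8 CPM in syngeneic CD8 T cells. Igtp had 254 and 149 CPM there, and Ifi47 320 and 214 CPM. No gene of the list with at least 20 UMIs was at least 2-fold lower in these cell types, while Irgm2, under that minimum, had 2 UMIs in allogeneic and 15 UMIs in syngeneic Foxp3+ T cells.

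Of the ligand, receptor and signalling genes of interferon-gamma, those at least 2-fold higher were 1 of 10 in CD8 T cells, 1 of 9 in CD4 T cells, 1 of 7 in Foxp3+ T cells and 5 of 9 in B cells, against the same shares of all genes. At least 2-fold lower were 2 in CD8 T cells, 1 in CD4 T cells, 1 in Foxp3+ T cells and 0 in B cells. The shares of all genes that far down were 5.33%, 5.81%, 6.89% and 11.0%. The median log2 ratio of the list was 0.39 in CD8 T cells, 0.33 in CD4 T cells, 0.21 in Foxp3+ T cells and 1.08 in B cells. The receptor chain Ifngr1 was the gene that passed in T cells, with 372 CPM in allogeneic and 150.3 CPM in syngeneic CD8 T cells and 315 and 106 CPM in CD4 T cells. The transcription factor Irf8 was lower, with 12.8 CPM in allogeneic and 37.5 CPM in syngeneic CD8 T cells. Ifng itself had 2 UMIs (1.28 CPM) in allogeneic and 19 UMIs (2.61 CPM) in syngeneic CD8 T cells. With Irf8 it made up the 2 genes at least 2-fold lower there, but its interval included no difference (log2 -1.03, -4.18 to 1.02). In CD4 T cells Ifng had 0 and 4 UMIs, so its level was near the floor of 3 UMIs in the allogeneic library.

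Receptor and signalling genes of type I interferon gave 1 of 5 at least 2-fold higher in CD8 T, CD4 T and B cells and 2 of 4 in Foxp3+ T cells. The shares of all genes were 7.92%, 8.98%, 9.17% and 11.0%. At least 2-fold lower was 1 in B cells (Tyk2, 2 allogeneic and 35 syngeneic UMIs), against 11.0% of genes. In CD8 T, CD4 T and Foxp3+ T cells 0 were that far down, against 5.33%, 5.81% and 6.89% of genes. Irf9, the DNA-binding subunit that recognises the ISRE, had 141 CPM in allogeneic and 72.9 CPM in syngeneic CD8 T cells, and 142 and 60.5 CPM in B cells. Of the inflammasome and pyroptosis genes, 1 of 5 in CD8 T cells, 2 of 6 in CD4 T cells, 0 of 2 in Foxp3+ T cells and 0 of 5 in B cells passed, where 7.92%, 8.98%, 11.0% and 9.17% of all genes did. The 2 in CD4 T cells were Casp4 (17.5 CPM in allogeneic and 8.13 CPM in syngeneic cells) and Il1b (48.7 and 2.50 CPM). Neutrophil markers summed to 12360 CPM in that allogeneic gate, and their part in the Il1b value was not tested. The adaptor Pycard had 165 CPM in allogeneic and 274 CPM in syngeneic CD4 T cells. Of 8 autophagy conjugation genes, whose products help to bring these GTPases to vacuoles, 0 passed in CD8 T, CD4 T and Foxp3+ T cells and 1 in B cells, and Gabarap had 178 and 215 CPM in CD8 T cells. Of the prenylation genes, whose products attach a lipid anchor to proteins or process the tail that carries it, 1 of 5 passed (Fntb) in CD8 T cells, 0 of 5 in CD4 T cells, 0 of 1 in Foxp3+ T cells and 0 of 3 in B cells, against the same shares of all genes.

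Genes with a pattern most like the family sum were ranked by Pearson correlation of log2(CPM + 10) over 9 points, the 4 shared cell types in each library and the allogeneic macrophages, among 9248 genes with at least 200 UMIs. The points share libraries, depth and free RNA, so the values are a description. The macrophage point of the family is 11 UMIs, and that of 1110038F14Rik, B4galt1 and Dtx3l is 59.3 CPM, or 1 UMI. The ranks depend on such counts. The highest were 1110038F14Rik (0.946), B4galt1 (0.944), H2-T22 (0.934), H2-Q7 (0.924), Rnaset2a (0.922) and Dtx3l (0.897). H2-T22 and H2-Q7 are non-classical MHC class I genes. Dtx3l, a ubiquitin ligase, had 104 CPM in allogeneic and 49.3 CPM in syngeneic CD8 T cells, and H2-T22 had 445 and 267 CPM. Among the 7 members, each of which is part of the sum, Gbp7 followed it most closely (0.970) and Gbp4 least (0.253), and the allogeneic macrophages had 0 Gbp4 UMIs.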

How the data were processed

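The deposited values are raw UMI counts, whole numbers by gene and barcode with no normalisation, in 1 matrix per library. Per the submitters' processing notes, the mm10 build and the tools STAR, Cell Ranger 2.2.0 and Seurat 2.3.4 were named, with no role or order. The mm10 build comes from C57BL/6 and the recipients were Balb/c, and what that does to the count of each member was not tested. The sources used here do not say how barcodes were selected.

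Counts of entries with 1 symbol were summed. Cells needed 200 genes or more and a mitochondrial share of 10% or less. This removed 1071 allogeneic barcodes for few genes and a further 323 for mitochondrial UMIs, and 10 syngeneic barcodes for mitochondrial UMIs. No doublet caller was run, and an alternative left out the deepest 5% of cells. T cells needed at least 2 UMIs of Cd3d, Cd3e and Cd3g, B cells 2 of a set that holds Cd79a, Cd79b, Ms4a1 and a marker not reported here, and macrophages 2 of C1qa, C1qb and C1qc, each with 0 of the other lineages. T cells were called CD4 with at least 1 Cd4 UMI, CD8 with at least 1 Cd8a or Cd8b1 UMI and Foxp3+ with at least 1 Foxp3 UMI, with 0 of the excluded genes. UMIs were summed per gate. The sums were 1565615 (allogeneic) and 7280020 (syngeneic) in CD8 T, 215720 and 454814 in Foxp3+ T, 556720 and 2198932 in B, and 800858 and 3196667 in CD4 T cells.

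Intervals are exact Poisson for CPM, conditional binomial for ratios and Clopper-Pearson for shares. Ratios were checked on simulated data, and 0 UMIs were set against a floor of 3 UMIs over the cell type. In a list, a gene counted as higher or lower at 2-fold, if its UMIs over both libraries reached 20. The named genes were the 7 members and other Gbp symbols, up to 4 of the most abundant genes of each of 7 lists, and the 6 genes most like the family sum. Some of these are not described, and Ifng and Irgm2 were added after their values were seen. The members and lists were chosen with earlier results of these data known. Alternatives changed scaling, cell filter, gates, depth, free RNA and doublets. Those with a dominance gate, without neutrophil-marked cells and without cells marked as dendritic or plasma cells were chosen after seeing the data. Python 3.11.15, numpy 2.4.6, scipy 1.17.1, pandas 2.3.3 and Biopython 1.88 were used.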

Additional observations from a re-analysis of the deposited data

Results flagged for a closer look

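Gbp2b moved in opposite directions in the CD4 and CD8 T cells of the same libraries, which is why it is given again here. Its log2 ratio of allogeneic over syngeneic level was -0.84 in CD4 T cells (24 allogeneic and 171 syngeneic UMIs) and 0.72 in CD8 T cells (122 and 345 UMIs). With 1 library per group the difference between these values was not tested, and its interval of 0.85 to 2.3 around 1.55 covers counting error only. Thinned to 1000 UMIs before gating, the CD8 T value was -0.33 (-1.60 to 0.72), so that both were negative, and among cells of at least 3447 UMIs the interval of the CD4 T value reached zero.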

How the results depend on the processing

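No paired analysis was possible because each group has 1 library. The log2 ratio of the family sum was positive under every alternative in CD8 T cells (0.73 to 1.09) and CD4 T cells (0.08 to 0.57). In CD4 T cells its interval included no difference under median-of-ratios scaling (0.15, -0.004 to 0.31) and with a minimum of 3447 UMIs (1.06-fold, 0.911 to 1.23). The family sum ratio turned negative in B cells of at least 3447 UMIs (-0.21) and in Foxp3+ T cells thinned to 1000 UMIs before gating (-0.15), where few cells remained. Of 65 alternative family sums, 52 stayed within the counting interval of the value reported, 11 moved out of it and 2 reversed. Thinning before gating gave 0.57 for CD4 T, 0.73 for CD8 T and 0.74 over all kept cells, and reversed Gbp2b in CD8 T cells (-0.33) and Gbp7 in Foxp3+ T cells (-0.17). A minimum of 3447 UMIs gave 0.082 in CD4 T cells and 0.55 over all kept cells. Median-of-ratios scaling gave 0.96 in CD8 T cells. Over all kept cells the value was 0.79 under a filter of 500 genes and 5% mitochondrial share, 0.80 without cells over 5% haemoglobin, 0.81 with free RNA subtracted, 0.83 without the deepest 5% of cells and 0.77 without cells over 1% neutrophil marker UMIs, the last added after seeing the data. The cause of these shifts was not tested.

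The number of members at least 2-fold higher was 2 in CD4 T cells and became 1 under scaling without haemoglobin, mitochondrial, ribosomal and immunoglobulin genes, median-of-ratios scaling, stricter marker minimums and thinning, while Gbp3 at 1.996-fold lay just under the limit. Thinning gave 2 in CD8 T cells and 1 in Foxp3+ T cells, and the minimum of 3447 UMIs gave 1 in Foxp3+ T cells. Over all kept cells the number was 1, became 3 under the gene and mitochondrial limits, the haemoglobin limit, free RNA subtraction and the doublet limit, and 2 with thinning or without neutrophil-marked cells. The share of all genes past 2-fold under each alternative was not set beside these numbers. Of 450 alternative values of single members, 418 stayed within their counting interval, 30 moved out of it and 2 reversed. With at least 50 UMIs, or at least 1, in place of 20, the genes at least 2-fold higher were 498 or 3430 rather than 753 in CD8 T cells, 428 or 3264 rather than 762 in CD4 T cells, 155 or 3390 rather than 470 in Foxp3+ T cells, and 419 or 3276 rather than 734 in B cells. The number of genes tested changes with the minimum, so these counts cannot be read as shares. At 20 UMIs the genes tested were 9506 in CD8 T, 8489 in CD4 T, 4269 in Foxp3+ T and 8008 in B cells. Counting limits Gbp6 most, with 8 UMIs in B cells and 9 in Foxp3+ T cells.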
